A study of Mus musculus with 8 samples.

Results

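The genes that set or hold the balance between epithelial and mesenchymal cell states are described here, 5 transcriptional repressors of epithelial genes (Zeb1, Zeb2, Snai1, Snai2 and Twist1) and 5 epithelial regulators (the splicing factors Esrp1 and Esrp2 and the transcription factors Grhl2, Ovol1 and Elf3). They were chosen by name, and each of these 10 was read by 1 probe set whose annotation gave that symbol alone, out of 19938 genes measured. The 8 arrays held RNA of established mouse lines, 2 arrays in each of 4 groups. MBA-15, a stromal line with pre-osteoblast character, came from co-culture with DA3 or from a culture labelled alone, and DA3, a mammary adenocarcinoma line, came from co-culture with MBA-15 or from a culture labelled alone. The sample descriptions name 24 h of culture, and the protocol describes parting co-cultured cells with magnetic particles against EpCAM, so that the DA3 fraction carries this epithelial surface protein and the MBA-15 fraction does not. No drug, transgene or engineered allele is named in the labels. The question behind the design was what bone stroma and mammary carcinoma do to one another in co-culture. The groups are called co-cultured MBA-15, solo-labelled MBA-15, co-cultured DA3 and solo-labelled DA3 below.

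As background, epithelial-mesenchymal transition is the switch by which epithelial cells lose their junctions and polarity and take on a migratory, fibroblast-like state. Zeb and Snail proteins are zinc finger repressors and Twist1 is a basic helix-loop-helix factor, and all act on short E-box motifs. Those of Zeb and Snail often lie in the promoters of junction genes such as Cdh1, which encodes E-cadherin. On the other side, Esrp1 and Esrp2 direct epithelial splicing, Grhl2 activates junction genes and represses Zeb1, Ovol1 belongs to a zinc finger family that represses mesenchymal genes, and Elf3 is an ETS factor of epithelia.

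Promoters of this gene system for which a reference sequence was at hand were searched for the E-box that Zeb and Snail proteins prefer, CAGGTG or its reverse complement CACCTG, in the 250 bases before the annotated gene start, both strands being covered by the pair. Among the 10 genes 4 had a promoter in the table (Zeb2, Snai1, Twist1 and Elf3), and Elf3 and Snai1 held 1 E-box each. The sequences of these promoters and of 4 genes from a list of epithelial target genes follow, 5′ to 3′ along the gene's strand from the RefSeq tables of GRCm38.p6, with the E-boxes in capitals. Epcam is shown because it defines the separation, Rab25 because it was among the targets that differed most between the lines, and Ap1m2 and Spint2 because they held many E-boxes, 4 in Ap1m2, the most in the list, and 3 in Spint2, as in Crb3. Elf3, chr1:135258473-135258722, minus strand:
Elf3: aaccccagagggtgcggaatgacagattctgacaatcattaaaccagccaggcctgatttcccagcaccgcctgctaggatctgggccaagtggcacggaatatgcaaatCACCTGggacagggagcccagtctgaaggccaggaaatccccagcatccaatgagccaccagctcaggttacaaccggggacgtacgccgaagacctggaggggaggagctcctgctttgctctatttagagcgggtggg
Snai1, chr2:167537945-167538194, plus strand:
Snai1: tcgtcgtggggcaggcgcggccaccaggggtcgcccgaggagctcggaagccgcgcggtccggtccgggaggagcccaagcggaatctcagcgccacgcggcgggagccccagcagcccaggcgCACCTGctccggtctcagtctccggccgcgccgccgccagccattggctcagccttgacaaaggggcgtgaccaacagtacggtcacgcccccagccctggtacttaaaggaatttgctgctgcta
Epcam, chr17:87635729-87635978, plus strand:
Epcam: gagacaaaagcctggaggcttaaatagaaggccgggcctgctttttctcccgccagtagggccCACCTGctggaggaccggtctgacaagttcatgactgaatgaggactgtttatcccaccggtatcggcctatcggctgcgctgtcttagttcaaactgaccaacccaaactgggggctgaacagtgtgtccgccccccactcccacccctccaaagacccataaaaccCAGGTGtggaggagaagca
Rab25, chr3:88548280-88548529, minus strand:
Rab25: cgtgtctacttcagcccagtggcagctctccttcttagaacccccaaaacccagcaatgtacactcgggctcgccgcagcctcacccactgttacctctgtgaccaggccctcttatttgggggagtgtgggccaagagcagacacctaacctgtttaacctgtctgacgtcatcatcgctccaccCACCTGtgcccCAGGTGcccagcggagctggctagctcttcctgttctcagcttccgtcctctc
Ap1m2, chr9:21312334-21312583, minus strand:
Ap1m2: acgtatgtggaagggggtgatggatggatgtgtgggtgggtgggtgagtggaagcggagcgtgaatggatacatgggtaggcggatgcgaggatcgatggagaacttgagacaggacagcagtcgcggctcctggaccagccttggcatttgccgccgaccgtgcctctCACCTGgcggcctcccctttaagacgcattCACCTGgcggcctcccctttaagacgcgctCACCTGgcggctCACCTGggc
Spint2, chr7:29281978-29282227, minus strand:
Spint2: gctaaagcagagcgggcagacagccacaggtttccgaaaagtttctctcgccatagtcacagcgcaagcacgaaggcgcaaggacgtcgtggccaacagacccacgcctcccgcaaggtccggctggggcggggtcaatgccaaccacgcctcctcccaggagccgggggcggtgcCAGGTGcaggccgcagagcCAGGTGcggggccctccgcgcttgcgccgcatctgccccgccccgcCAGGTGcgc

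The E-box of Elf3 began at -140 and that of Snai1 at -126, counted from the gene start. Of 21 epithelial target genes with a promoter in the table, 15 (71.4%) held at least 1 such E-box in any of their annotated windows and 8 (38.1%) held 2 or more. Of 27025 genes with a promoter, 19.4% held at least 1 and 2.4% held 2 or more, and of 11 mesenchymal genes 0 did. The target list was drawn from genes known to answer to these repressors, some of them through E-boxes, so the shares describe the list. A match says only that the letters are there.

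**Figure D1:**
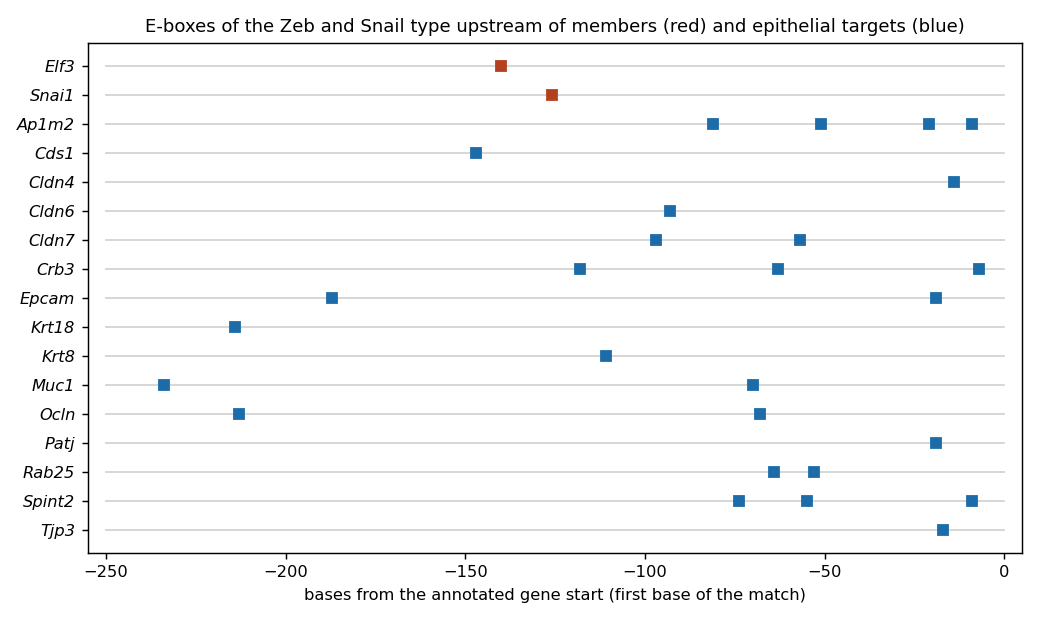
Each square is the first base of a CAGGTG or CACCTG motif, by its distance in bases from the annotated gene start, for 2 members of the set (red) and 15 epithelial target genes (blue), with the window of most motifs shown for genes with several windows. In Rab25 the motifs stand at -64 and -53, and in Spint2 at -74, -55 and -9.

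The values are log2 expression as deposited, and array medians over all probe sets lay between 4.479 and 4.642. The table holds no detection calls, so levels below about 4.479 are read as dim, and a difference against a dim level may understate the true ratio. Separate cultures are not named for the arrays of a group, and all 8 carry the same culture date, so each p-value rests on array spread that may be technical. Epcam was at 8.45 and 9.25 on solo-labelled MBA-15, against 5.58 and 5.19 in co-cultured MBA-15, 9.30 and 9.38 in co-cultured DA3 and 9.57 and 9.46 in solo-labelled DA3, so the level in solo-labelled MBA-15 goes against its label. Of 13 epithelial markers measured, the mean level was 8.09 and 8.55 there, 5.14 and 4.99 in co-cultured MBA-15, 8.77 and 9.24 in co-cultured DA3 and 9.26 and 9.19 in solo-labelled DA3. The mean of 10 stromal markers was 7.65 and 7.64, 8.19 and 7.76, 6.18 and 5.50, and 4.93 and 5.04 in the same order, with Thy1 and Postn dim on all 8 arrays. Markers of leukocytes, endothelium and fat had array means between 3.70 and 4.57. Among them Cd68 (4.62 to 6.80) and Cldn5 (4.90 to 5.92) were not dim on any array. The word mix stands unexplained in the descriptions of these 4 solo-labelled arrays, so each is named here by its label only. Because Epcam goes against its label on 2 arrays, the lines are compared first as co-cultured MBA-15 against solo-labelled DA3.

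**Figure D2:**
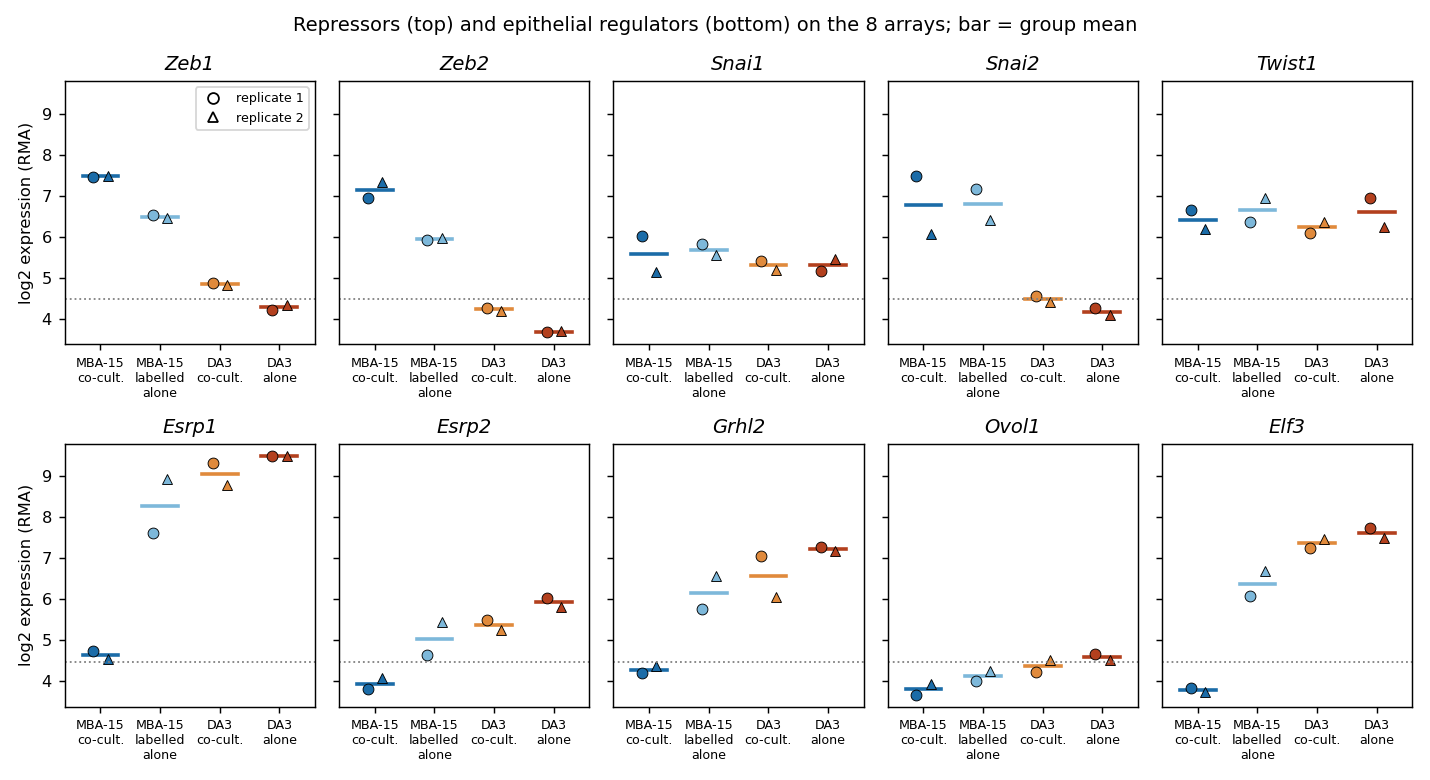
Log2 expression (vertical axis) of the 10 genes in the 4 groups, a circle for replicate 1, a triangle for replicate 2 and a bar for the group mean, with the lowest array median (4.479) dotted. Zeb1, Zeb2 and the epithelial regulators step across the groups in opposite order, while Snai1 and Twist1 lie within a narrow band.

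The first comparison asked how the lines differ. Its groups also differ in co-culture and in the separation by EpCAM, which cannot be told apart from the line here. Zeb1 and Zeb2, the zinc finger homeobox repressors, were high in co-cultured MBA-15 and dim in solo-labelled DA3, and all 5 epithelial regulators were higher in DA3. Of the 10 genes, 3 were higher and 5 lower in co-cultured MBA-15 than in solo-labelled DA3 in limma, whereas 12.6% of all genes passed in either direction (6.08% higher, 6.47% lower). The arrays of these groups did not overlap for 27.2% of all genes in the higher and 26.6% in the lower direction. The median change was 2.59 for the 5 repressors and -2.94 for the 5 epithelial regulators, against 0.0044 over all genes.

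Zeb1 was at 7.46 and 7.48 in co-cultured MBA-15 and at 4.21 and 4.35 in solo-labelled DA3. Its change was 3.19 ± 0.12 log2 units (SE, n = 2 arrays per group, adjusted p = 0.000161, limma with Benjamini-Hochberg adjustment), a 9.15-fold difference. The replicates differed by far less than the groups, and the DA3 arrays were dim. Zeb2, the close relative of Zeb1, was at 6.96 and 7.33 against 3.68 and 3.70, a change of 3.45 ± 0.15 (limma, adjusted p = 0.000161). Both paralogs thus stood on the same side in both lines, and within assay number 3 and assay number 4 of the descriptions the change was 3.13 and 3.25 for Zeb1 and 3.63 and 3.28 for Zeb2.

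Snai2, the Slug repressor of mesenchymal and neural crest cells, was at 7.47 and 6.06 in co-cultured MBA-15 and at 4.26 and 4.09 in solo-labelled DA3, a change of 2.59 ± 0.46 (limma, adjusted p = 0.0133). Its stromal replicates differed by more than 1 log2 unit but stayed above both DA3 arrays. The call was lost without solo-labelled DA3 array 1 (limma, adjusted p = 0.081) or array 2 (0.0918), and was kept without either co-cultured MBA-15 array. Within assay 3 and assay 4 the change was 1.97 and 3.21.

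Snai1 and Twist1 showed no such split. Snai1, which encodes the Snail repressor, was at 6.02 and 5.13 in co-cultured MBA-15 and at 5.16 and 5.46 in solo-labelled DA3, and the groups overlapped (change 0.27, 95% interval -0.44 to 0.97, limma, adjusted p = 0.715). Twist1 was at 6.66 and 6.18 against 6.95 and 6.25, and these arrays overlapped too (change -0.18, 95% interval -0.93 to 0.57, limma, adjusted p = 0.844). Twist1 was above the array medians on all 8 arrays, in the carcinoma line as in the stromal line. These intervals leave out a difference as large as that of Zeb1.

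Among the epithelial regulators Esrp1 had the largest difference. It was at 9.51 and 9.49 in solo-labelled DA3 and at 4.75 and 4.55 in co-cultured MBA-15, a change of -4.85 ± 0.41 (limma, adjusted p = 0.000767) or 28.8-fold. Its paralog Esrp2 was at 6.05 and 5.82 against 3.82 and 4.08, a change of -1.98 ± 0.27 (limma, adjusted p = 0.00522). Both splicing factors were thus lower in the stromal line, and Esrp2 was dim there. The call of Esrp2 was lost without solo-labelled DA3 array 1 (limma, adjusted p = 0.0518).

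Elf3 was at 7.74 and 7.49 in solo-labelled DA3 and at 3.83 and 3.74 in co-cultured MBA-15 (-3.83 ± 0.22, limma, adjusted p = 0.000252). Grhl2, a grainyhead factor, was at 7.27 and 7.19 against 4.21 and 4.38 (-2.94 ± 0.38, limma, adjusted p = 0.0039). Neither gene's groups overlapped, and both were dim in the stromal line. Ovol1 stayed near the array medians in solo-labelled DA3, at 4.68 and 4.52, against 3.68 and 3.94 in co-cultured MBA-15. Its change of -0.79 ± 0.17 passed (limma, adjusted p = 0.0282), but not without co-cultured MBA-15 array 1 or 2 (0.108 and 0.0521) or solo-labelled DA3 array 1 or 2 (0.182 and 0.11).

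The same genes were compared between the fractions parted from co-culture, MBA-15 against DA3, a comparison that shares the co-cultured MBA-15 arrays with the one above. Zeb1 (2.63 ± 0.12), Zeb2 (2.91 ± 0.15) and Snai2 (2.28 ± 0.46) were higher in the MBA-15 fraction, and Esrp1 (-4.41 ± 0.41), Elf3 (-3.58 ± 0.22), Grhl2 (-2.27 ± 0.38) and Esrp2 (-1.42 ± 0.27) were lower. These 3 and 4 of 10 genes passed in limma, against 12.8% of all genes (8.28% higher, 4.48% lower, with a median change of -0.07). With quantile normalization 52.1% of the calls over all genes were higher, against 64.9% as reported. Ovol1 was at -0.57 ± 0.17 and did not pass (limma, adjusted p = 0.083), nor did Snai1 (0.27, 95% interval -0.43 to 0.98) and Twist1 (0.19, -0.56 to 0.94).

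Snai2 lost its call with the assay number as a block (1.83, limma, adjusted p = 0.0552), with only these groups in the fit (0.0877), without solo-labelled DA3 array 1 or 2 (0.053 each) and without co-cultured DA3 array 1 or 2 (0.0633 and 0.0784). Esrp2 lost it with the assay block (-1.39, limma, adjusted p = 0.0725), without co-cultured MBA-15 array 1 or 2 (0.0808 and 0.0559) and without co-cultured DA3 array 1 (0.0724).

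**Figure D3:**
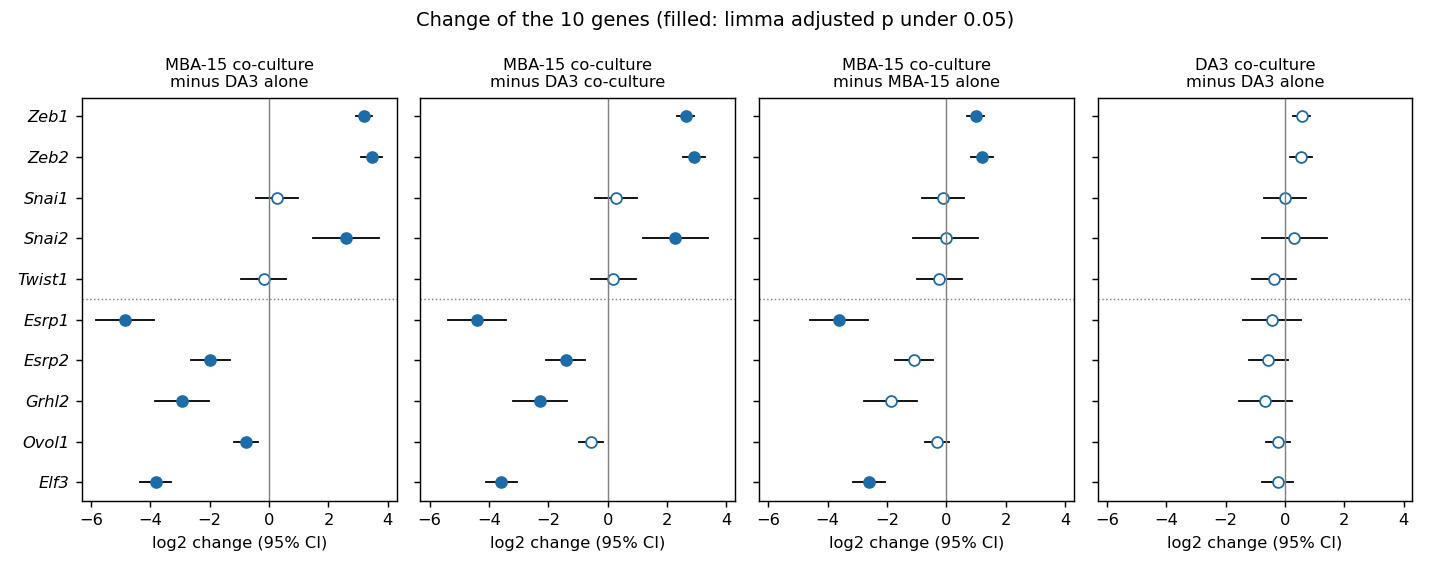
Log2 change (point) with its 95% interval from limma for the 10 genes in 4 comparisons, filled where the adjusted p is under 0.05 over all genes. The left pair of panels sets the lines against each other, with changes from -4.85 for Esrp1 to 3.45 for Zeb2, and the right pair holds the co-culture comparisons, where 4 and 0 genes passed.

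The next comparison followed the study's own contrast for the stromal line and shares the co-cultured MBA-15 arrays with both above, co-cultured MBA-15 against solo-labelled MBA-15. Zeb1 and Zeb2 were higher, and Esrp1 and Elf3 lower, in co-culture. These 2 and 2 of 10 genes compare with 0.848% of all genes called (0.0752% higher, 0.772% lower). Zeb1 was at 6.53 and 6.45 on the solo-labelled arrays, which gives a change of 0.98 ± 0.12 (limma, adjusted p = 0.0212), and Zeb2 was at 5.92 and 5.97 (1.20 ± 0.15, limma, adjusted p = 0.0248). Their solo-labelled arrays lay between the co-culture arrays and both DA3 groups without overlap. Over all genes, 22.3% had both co-cultured arrays above both solo-labelled ones and 16.1% had them below. In such bulk samples, fewer cells of a type and less RNA per cell cannot be told apart.

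Esrp1 was at 7.62 and 8.93 on the solo-labelled arrays, a change of -3.62 ± 0.41 in co-culture (limma, adjusted p = 0.0163). Elf3 was at 6.09 and 6.69 (-2.60 ± 0.22, limma, adjusted p = 0.00735). Grhl2, at 5.76 and 6.58, did not pass (-1.88 ± 0.38, limma, adjusted p = 0.112), nor did Esrp2, at 4.63 and 5.44 (-1.09 ± 0.27, 0.199). Array 2 of the solo-labelled pair was the higher of the pair for all 5 epithelial regulators, Ovol1 at 4.01 and 4.26 included (-0.32, 95% interval -0.73 to 0.09).

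Snai2 was at 7.16 and 6.42 on these arrays, within the range of the co-culture pair (-0.02, 95% interval -1.12 to 1.07). Snai1, at 5.82 and 5.55, also lay within it (-0.11, -0.81 to 0.60). Twist1 was at 6.36 and 6.95 and overlapped with co-culture (-0.24, -0.99 to 0.51).

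The 4 calls rest on few arrays. With the assay number as a block Zeb1 and Zeb2 had adjusted p = 0.0633 and 0.0542 in limma, and with only these groups in the fit all 4 genes missed the threshold (0.135 for Zeb1, 0.15 for Zeb2, 0.0953 for Esrp1 and 0.0602 for Elf3). Leaving out solo-labelled DA3 array 1 or 2, which does not change the estimates, took the calls of Zeb1 (0.0723), Zeb2 (0.0889) and Esrp1 (0.0615). Without co-cultured MBA-15 array 2 all 4 were lost, without its array 1 Zeb1 and Esrp1 were, and without solo-labelled MBA-15 array 1 or 2 Zeb1 and Zeb2 were. Within assay 3 and assay 4 the change was 1.03 and 0.94 for Zeb1, 1.36 and 1.03 for Zeb2, -4.38 and -2.87 for Esrp1 and -2.95 and -2.25 for Elf3.

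Epithelial markers moved with these genes in this comparison. All 13 measured were lower with an unadjusted p under 0.05, and 12 of them passed in limma (median change -3.38), against 0.772% of all genes called lower. Of 10 stromal markers 0 passed in limma or had an unadjusted p under 0.05 (median 0.34). To place the 8 genes that differed between the lines, each array was set on a linear scale between the mean of co-cultured MBA-15 and the mean of solo-labelled DA3, with 100% at the line where the gene was higher. On solo-labelled MBA-15 array 1 the epithelial regulators stood between 19.4% (Ovol1) and 29.6% (Elf3), beside a median of 42.9% (range 26.8 to 56.8%) for the epithelial markers. On array 2 they stood between 49.0% (Elf3) and 66.2% (Esrp1), beside 59.5% (46.5 to 81.9%). The regulators and the marker median were higher on array 2, but the marker Krt8 was lower there (46.5%, against 52.9% on array 1).

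Zeb1 stood at 46.0% and 43.0% and Zeb2 at 37.0% and 38.3% of their co-cultured MBA-15 level on solo-labelled MBA-15. The 7 stromal markers that differed between the lines had a median of 67.8% (49.5 to 85.8%) and 71.6% (64.6 to 88.3%) there. Both Zeb genes lay below each of these 7 on both arrays, but such a gap was not particular to them. In log2 units, Col5a2 was at 7.86 and 7.80 there, against 8.86 and 8.77 in co-cultured MBA-15. The Y-linked Kdm5d was at 5.21 and 5.08 against 6.02 and 5.91. Vim stood nearer its co-cultured level, at 11.12 and 10.60 against 11.33 and 10.81. Snai2 stood at 120.2% and 64.7%. The part of DA3 RNA in the changes of the 10 genes was not tested.

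**Figure D4:**
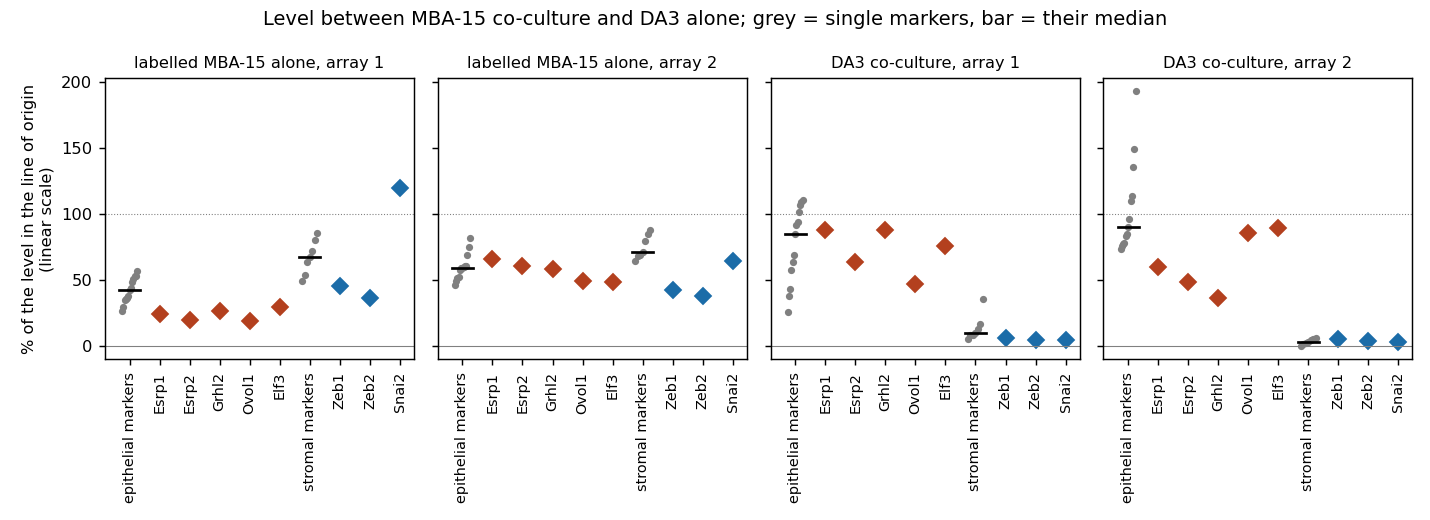
Level of single genes as a percentage of the way between co-cultured MBA-15 and solo-labelled DA3 on a linear scale, with 100% in the line where the gene was higher (red diamonds, epithelial regulators; blue diamonds, repressors; grey, single epithelial or stromal markers with their median as a bar). On solo-labelled MBA-15 Zeb1 and Zeb2 lie at 37.0 to 46.0%, and on the co-cultured DA3 arrays at 4.2 to 6.3%.

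In the carcinoma line, co-cultured DA3 was set against solo-labelled DA3, whose arrays also entered the line comparison. There 0 of the 10 genes passed in limma, where 0.0401% of all genes did and 14.9% had an unadjusted p under 0.05. Zeb1 was at 4.88 and 4.82 in co-culture against 4.21 and 4.35 alone (0.57 ± 0.12, limma, adjusted p = 0.172), and Zeb2 at 4.27 and 4.19 against 3.68 and 3.70 (0.54 ± 0.15, limma, adjusted p = 0.228). These were the only 2 of the 10 with an unadjusted p under 0.05, and their groups did not overlap, as held in the same direction for 31.4% of all genes. Both stayed far under their stromal level. On the linear scale above, Zeb1 stood at 6.3% and 5.5% and Zeb2 at 4.9% and 4.2% of the co-cultured MBA-15 level, beside a median of 10.5% (5.4 to 35.6%) and 3.1% (0.1 to 6.2%) for the stromal markers on the same arrays. Of 10 stromal markers 6 had higher values with an unadjusted p under 0.05 and 0 passed. Whether MBA-15 RNA on these arrays has a part in the values of Zeb1 and Zeb2 was not tested.

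The epithelial regulators had negative estimates in co-cultured DA3, all with intervals that include 0, except that Elf3 turned to 0.024 with quantile normalization. Esrp1 was at 9.32 and 8.79 (-0.44, 95% interval -1.42 to 0.53), Grhl2 at 7.07 and 6.06 (-0.66, -1.56 to 0.24) and Esrp2 at 5.49 and 5.25 (-0.57, -1.22 to 0.09). Elf3, at 7.26 and 7.47, lay just under its solo-labelled pair (-0.24, -0.77 to 0.28), and so did Ovol1, at 4.24 and 4.52 (-0.22, -0.63 to 0.19). Array 2 was the lower of the pair for Esrp1, Esrp2 and Grhl2 and the higher for Elf3 and Ovol1. Of the other repressors, Snai2 was at 4.55 and 4.42 (0.31, -0.79 to 1.40), Snai1 at 5.41 and 5.20 (-0.0044, -0.71 to 0.70, and 0.23 with quantile normalization) and Twist1 at 6.09 and 6.37 (-0.37, -1.12 to 0.38). Assay 3 alone holds both groups, and within it the change was 0.53 for Zeb1, 0.57 for Zeb2, -0.17 for Esrp1 and -0.12 for Grhl2.

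Whether the co-culture effect differed between the lines was tested as an interaction, and 0 of the 10 genes passed in limma, against 0.0602% of all genes called and 6.32% with an unadjusted p under 0.05. Esrp1 (-3.18 ± 0.58, limma, adjusted p = 0.214) and Elf3 (-2.36 ± 0.31, 0.109) had the largest estimates, and Zeb1 (0.42 ± 0.17) and Zeb2 (0.65 ± 0.21) also had an unadjusted p under 0.05. This test uses all 4 groups, solo-labelled MBA-15 included. With dim genes left out Esrp1 and Elf3 passed (limma, adjusted p = 0.0415 and 0.0372).

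Genes around the 10 were read from lists by function in co-cultured MBA-15 against solo-labelled DA3. Of 31 measured epithelial target genes, 28 were lower and 0 higher in co-cultured MBA-15, with a median change of -3.64. Cdh1 was lower by 16.4-fold (-4.04 ± 0.28), the keratin Krt18 had -4.63 ± 0.19, the small GTPase gene Rab25 -4.47 ± 0.37, and the claudins Cldn7 and Cldn6 -4.46 ± 0.19 and -4.44 ± 0.20. Of 24 mesenchymal genes, 19 were higher and 0 lower (median 3.50), led by the proteoglycan gene Vcan (6.08 ± 0.36), the collagen genes Col1a2 (4.56 ± 0.36) and Col5a2 (4.42 ± 0.20) and the receptor gene Pdgfra (4.26 ± 0.43). The intermediate filament gene Vim, a usual mark of mesenchymal cells, was higher by 3.45 ± 0.23. The background of 6.08% higher and 6.47% lower calls applies to these lists too.

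Other transcription factors were split. Of 15 mesenchymal ones measured, 3 were higher and 0 lower. Prrx1, a homeobox gene of limb and bone mesenchyme, had a change of 4.44 ± 0.40, Twist2, the paralog of Twist1, of 3.40 ± 0.18, and the forkhead gene Foxc2 of 1.49 ± 0.21, while Foxc1 did not pass (-0.69 ± 0.30). Twist2 was at 7.32 and 7.26 in co-cultured MBA-15 and at 3.86 and 3.93 in solo-labelled DA3, so the Twist paralogs differed in pattern in that Twist1 overlapped between these groups. Of 13 epithelial factors, 3 were lower and 0 higher, namely the ETS gene Ehf (-2.12 ± 0.25), Ovol2 (-1.17 ± 0.16) and Grhl1 (-1.13 ± 0.16), relatives of Elf3, Ovol1 and Grhl2. Tfap2a did not pass (-1.11 ± 0.35).

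Corepressors that Zeb and Snail proteins recruit showed little. Of 17 measured, 0 passed in limma and 3 had an unadjusted p under 0.05, as did 24.1% of all genes, with a median change of -0.20, although Ctbp1, the partner of Zeb proteins, came near (1.99-fold lower, limma, adjusted p = 0.0564). Sin3a (-0.74), Rcor1 (-0.71) and Ehmt2 (-0.69) were the next in size. Between the co-culture fractions 1 of the 17, the Polycomb gene Rnf2, was higher in MBA-15 (0.98 ± 0.17), where 8.28% of all genes were. Of 9 genes for the phosphorylation and breakdown of Snail protein, 1 was lower in co-cultured MBA-15 than in solo-labelled DA3, where 6.47% of all genes were. This was the kinase subunit gene Csnk2a1 (-1.24 ± 0.27), whose call was lost in 3 settings that each left out 1 array. Fbxo45 (-1.10), Lats2 (0.99) and Fbxl14 (-0.76) did not pass. Between the fractions 1 of these 9, the F-box gene Fbxl5, was higher in MBA-15 (0.83 ± 0.12), a share near the 8.28% of all genes. Its call was lost with the assay block, with only these groups in the fit and with an intensity trend (limma, adjusted p up to 0.0712).

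On the splicing side, 10 genes with exons that Esrp proteins are known to steer were read as whole genes only, since the deposited value sums the probes of a gene and does not tell its isoforms apart. The receptor gene Fgfr1 was higher in co-cultured MBA-15 than in solo-labelled DA3 (2.37 ± 0.40), the exocyst gene Exoc7 (-1.31 ± 0.24) and the hyaluronan receptor gene Cd44 (-0.89 ± 0.18) were lower, and Fgfr2 did not pass (1.29 ± 0.35, limma, adjusted p = 0.0613). Of 10 other splicing factors, Ptbp2 (2.02 ± 0.28) and Rbfox2 (1.10 ± 0.14) were higher and Rbm47, which encodes another RNA-binding protein, was lower (-2.80 ± 0.53), while Mbnl2 had 0.98 ± 0.31 and did not pass. Between the fractions 4 of these 10, Mbnl2 and Ptbp2 among them, were called higher in MBA-15, against 8.28% of all genes. Of the Esrp list 2 were higher there, Fgfr1 and Fgfr2, and 2 lower, against 4.48% of all genes. The call of Mbnl2 was lost in 10 alternative settings and that of Fgfr1 in 4. The calls of Fgfr2, higher, and Exoc7, lower, were also lost in some fits that left out 1 array. In most such fits fewer of the splicing factors were called. The precursors of the miR-200 family and of miR-205, which target Zeb1 and Zeb2, gave no reading of use. All 5 measured were between 3.17 and 4.47, dim on all 8 arrays, and 0 passed in limma in any of the comparisons, with 1 unadjusted p under 0.05 between the fractions, where 27.6% of all genes had one, and 0 elsewhere.

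**Figure D5:**
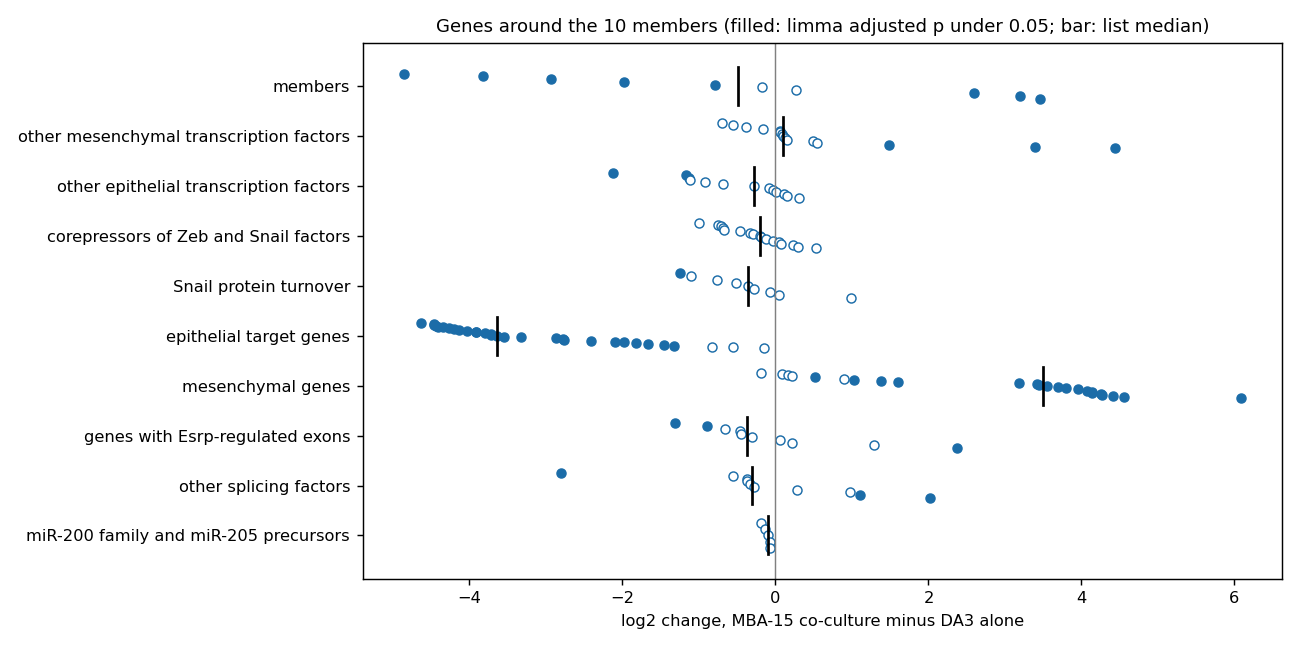
Log2 change between co-cultured MBA-15 and solo-labelled DA3 (horizontal axis) of each measured gene in the set of 10 and in 9 lists around it, filled where the limma adjusted p is under 0.05, with the list median as a bar. Epithelial targets (median -3.64) and mesenchymal genes (3.50) lie on opposite sides, and corepressors cluster around -0.20.

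Outside the line comparison, 18 of the 31 epithelial target genes were called lower in co-cultured than in solo-labelled MBA-15 (median -2.49), where 0.772% of all genes were. Krt18 (-3.71 ± 0.19) and Rab25 (-3.67 ± 0.37) had the largest changes. On those solo-labelled arrays the mean of 13 epithelial markers was 8.09 and 8.55. All of these markers except Krt7 are also on the target list, so markers and targets are not separate readings. The part of DA3 RNA was not tested. Of 24 mesenchymal genes 0 passed in limma (median 0.34, 4 with an unadjusted p under 0.05, against 9.8% of all genes). In co-cultured DA3 0 of 31 and 0 of 24 passed in limma, with medians of -0.16 and 0.70. Of these, 5 and 13 had an unadjusted p under 0.05, against 14.9% of all genes, all 13 of the mesenchymal genes with higher values. Of 10 stromal markers 6 did, all higher, but all of the 10 except Alpl are also on the mesenchymal list. They are therefore not a separate reading, and the part of MBA-15 RNA was not tested. Cdh1 had a change of -0.16 ± 0.28 and Vim of 1.65 ± 0.23 there (limma, adjusted p = 0.0906 for Vim).

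The genes whose level ran most like that of a member over the 8 arrays were sought among 935 genes whose group means span more than 2 log2 units, by Pearson correlation, as a description over arrays that share 4 groups. For Zeb2 the nearest was Zeb1 itself (0.997), followed by Prex2 and Tbcel, and for Zeb1 they were Atp10a (0.997), Rftn2 and the Y-linked Kdm5d. For Esrp1 they were Tmem184a (0.998), the adhesion gene Cadm1 and the glycosyltransferase gene Galnt3. Grhl2 ran with the tight junction gene Cgn (0.996), Cdc42bpg and Cobl, Elf3 with the protease inhibitor gene Spint1 (0.996), B3gnt3 and Slc52a3, and Snai2 with Copz2 (0.994), Tcn2 and the forkhead gene Foxf2.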

How the data were processed

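The authors deposited log2 expression values of the probe sets on mouse Affymetrix MoGene ST arrays, made with Partek 6.5 and RMA, which corrects background, scales arrays to each other and sums up probes, per the submitters' processing notes. No parameters or genome build are given in the sources used here, and the log2 scale was read from the values and from the RMA named. Changes are therefore relative to the other genes of an array. Of 35556 probe sets, 21789 had exactly 1 symbol in the platform annotation, 1621 several and 12146 none listed. The highest-mean probe set per gene left 19938 genes.

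Contrasts of the 4 group means were fitted to all 8 arrays with limma 3.58.1 (R 4.3.3), with 4 residual and 2.6 prior degrees of freedom, and p-values were two-sided and adjusted over all genes at 0.05. Errors beside changes are standard errors. The fit was tested on simulated data for co-cultured MBA-15 against solo-labelled DA3. Of 50 planted changes of 1 log2 unit 22 were called, of 50 of 2 units 41, and of 19738 genes without a change 10. A true change of about 1 log2 unit can thus be missed. The simulation covered that comparison only, so these rates do not carry over to the others. The number of arrays limits the precision. Named are the 10 members, Epcam, Cdh1 and Vim, up to 4 genes per list by size of change between co-cultured MBA-15 and solo-labelled DA3, and up to 2 per list among those called elsewhere. The promoters printed and the genes Ap1m2, Crb3, Spint2, Llgl2 and Krt8 were chosen after their values or motifs were seen. So were the added mentions of Twist2, Col5a2, Kdm5d, Vim, Fgfr2, Exoc7, Cd68 and Cldn5. Members and lists were chosen with earlier results of these data known. Alternatives covered the probe set, scaling, a filter on dim genes, the spread, the arrays in the fit, the assay number, the replicate number and each array left out.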

Additional observations from a re-analysis of the deposited data

Results flagged for a closer look

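The co-culture effect differed between the lines, by the interaction in limma, for 4 of the 31 epithelial target genes, Krt18 (-3.86 ± 0.27, adjusted p = 0.0315), Cldn7 (-3.45 ± 0.27, 0.0315), Cldn6 (-3.17 ± 0.29, 0.0393) and Llgl2 (-2.31 ± 0.21, 0.0393), where 0.0602% of all genes passed. Cldn6 and Llgl2 were added after their values were seen, and both missed the threshold with the assay block, with the replicate block and without any 1 of the 8 arrays (adjusted p up to 0.326 and 0.377). Of Krt18 and Cldn7, neither passed with the assay block (adjusted p = 0.16 for both) or without co-cultured MBA-15 array 1 (0.142) or array 2 (0.206), solo-labelled MBA-15 array 2 (0.113) or solo-labelled DA3 array 1 (0.203) or array 2 (0.326). Krt18 also missed without solo-labelled MBA-15 array 1 (0.0585), and Cldn7 without co-cultured DA3 array 1 (0.0618) or array 2 (0.0976). With the replicate block their adjusted p was 0.0605 and 0.0781. All 4 are epithelial genes that were lower in co-cultured MBA-15 than on solo-labelled MBA-15, where Epcam was at 8.45 and 9.25. The part of DA3 RNA on those arrays was not tested.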

How the results depend on the processing

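Over the comparisons of the 10 genes, the line comparison kept its 3 higher and 5 lower calls under the alternatives that kept all arrays of its groups, except that the filter on dim probe sets removed Ovol1 and left 4 lower calls, and leaving out single arrays gave 2 to 3 higher and 3 to 5 lower, with 995 to 2870 genes called in all. For co-cultured MBA-15 against solo-labelled MBA-15, the 2 higher calls became 1 with the filter on dim probe sets, 1 with an intensity trend and robust spread, 0 with only the groups compared and 0 with the assay block, and the 2 lower calls became 3 with the filter, 3 with the trend and 0 with only the groups compared. All genes called there, 169 in the fit reported, numbered 265, 334 and 28 with the filter, the trend and only those groups. Single arrays left out gave 0 to 2 higher, 0 to 2 lower and 13 to 198 genes in all. In DA3 the 8 genes called became 1 with quantile normalization, 14 with arrays centred on their median, 74 with the filter, 134 with the trend, 0 with only the groups compared, 2 without both solo-labelled MBA-15 arrays and 0 with the assay block, with 0 to 3 over single arrays left out. Between the fractions 2545 genes became 1123 with only those groups and 1642 to 2229 over single arrays left out, with 2 to 3 higher and 3 to 4 lower calls among the 10. For the interaction the 12 genes became 25 with quantile normalization, 49 with the filter, 44 with the trend, 0 with the assay block and 0 to 8 over single arrays left out, and among the 10 the filter gave 2 lower calls and the trend 1. The cause of these shifts was not tested.

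Centring arrays on their median moved the median change of all genes from 0.0433 to 0.15 in MBA-15 and from -0.0152 to 0.13 in the interaction. The following signs turned, none of them in a called value. With quantile normalization these were Snai1 (0.081) and Snai2 (0.12) in MBA-15, Snai1 (0.23), Elf3 (0.024) and Cdh1 (0.028) in DA3 and Twist1 (-0.063) in the interaction. With arrays centred on their median they were Snai1 (0.0004) and Snai2 (0.082) in MBA-15 and Snai1 (0.047) and Ovol1 (0.051) in the interaction. With the assay block they were Snai1 (0.25) in DA3 and Ovol1 (0.10) in the interaction. Over single arrays left out, the line comparison ran from -0.18 to 0.71 for Snai1, -0.53 to 0.17 for Twist1, -1.38 to 0.0099 for Ehmt2, -0.28 to 0.0016 for Mir200b and -0.23 to 0.041 for Mir200c. In MBA-15 the ranges were -0.55 to 0.34 for Snai1, -0.73 to 0.68 for Snai2, -0.53 to 0.057 for Twist1 and -0.048 to 0.47 for Vim. In DA3 they were -0.15 to 0.14 for Snai1 and -0.34 to 0.023 for Cdh1. Between the fractions they were -0.17 to 0.71 for Snai1 and -0.050 to 0.43 for Twist1. In the interaction they were -0.54 to 0.34 for Snai1, -1.04 to 0.38 for Snai2, -0.22 to 0.48 for Twist1 and -0.23 to 0.039 for Ovol1.

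Among genes named from the lists in the line comparison, leaving out single arrays lost the call of Cd44, Csnk2a1, Exoc7 and Rbm47 (each without co-cultured MBA-15 array 2 or either solo-labelled DA3 array, Cd44 also without co-cultured MBA-15 array 1), Fgfr1 (without either solo-labelled DA3 array), Ovol2 and Grhl1 (without its array 1) and Foxc2 and Ptbp2 (without its array 2), with adjusted p up to 0.167 in limma. In MBA-15 the call of Rab25 was lost without either co-cultured array or array 2 of the solo-labelled pair (up to 0.112), and between the fractions that of Rnf2 was lost without co-cultured MBA-15 array 2 (0.0857 at most over all settings).

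The replicate numbers do not pair the samples, as deviations of same-numbered arrays correlated between -0.413 and 0.311. With the replicate number as a block 3 genes were called in DA3 and 0 in the interaction, and the calls among the 10 numbered the same in all 5 comparisons. No alternative can add detection calls, so dim levels limit what can be read of Ovol1, Esrp2 and the microRNA precursors.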
